A study of Mus musculus with 47 samples.

Results

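The comparison concerns uninduced muscle differentiation between 24 and 48 h in C2C12 iMyoD1 cells: the 3 libraries collected 24 h after serum withdrawal without doxycycline (dox) were set against the 3 collected at 48 h, likewise without dox. The libraries were chosen by their labels, and make 6 of the 47 deposited RNA-seq libraries, which fall into 16 groups. C2C12 is an established mouse myoblast line that withdraws from proliferation and fuses into myotubes when serum is lowered. The study raised MyoD1 with a dox-inducible Halo-tagged transgene and followed the cells at 0, 24, 48 and 120 h. Lines with inducible Mcam or Cdh23, 2 adhesion molecules, were profiled at 48 h.

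Both groups were of the genotype labelled endogenous MyoD1 plus dox-inducible Halo-MyoD1, and both received vehicle only, for 24 h in 1 group and for 48 h in the other. All cells therefore carried the uninduced transgene, integrated by PiggyBac transposase under a TRE3GS promoter and selected with puromycin. As the transgene encodes MyoD1, reads from it and from the endogenous gene cannot be told apart in the gene count. Differentiation medium held a low concentration of horse serum with insulin, transferrin and selenium, and was not replaced. RNA was selected for poly(A) tails, so changes in unadenylated RNA were outside the assay. Whole cultures were lysed, and at 48 h they can hold unfused cells beside myotubes. Fewer cells of a type and less RNA per cell cannot be told apart in such samples.

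Myogenic differentiation is driven by basic helix-loop-helix (bHLH) factors. Myod1 and Myf5 mark committed myoblasts, Myog is switched on as cells leave the cycle, and MEF2 proteins act with them on genes of the contractile apparatus. ID proteins and Hairy-related repressors hold these factors back, Cdkn1a and Cdkn1c stop cyclin-dependent kinases, and the membrane proteins encoded by Mymk and Mymx bring about fusion.

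The deposited values were estimated counts per transcript, which were summed per gene. Total counts were 25357816, 29046860 and 30444909 in the 24 h libraries and 18598298, 20629489 and 24097187 at 48 h. Levels are given as CPM, counts scaled to a common library size over all 47 libraries, and the floors used below cover counting error only. Between 13330 and 13801 genes had at least 10 counts in each library. Spearman correlation across genes was 0.992 to 0.994 within the 24 h group, 0.993 within the 48 h group, and 0.897 to 0.901 between a 24 h and a 48 h library. Genes are not independent replicates.

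The libraries also differed in composition. Mitochondrially encoded genes took 4.60% to 4.86% of counts at 24 h and 3.30% to 3.47% at 48 h, and ribosomal protein genes took 9.47% to 11.3% and 6.36% to 6.70%. Ribosomal RNA made up 0.172% to 0.230% at 24 h and 1.02%, 2.10% and 0.243% in the 48 h replicates 1, 2 and 3. A run without mitochondrial and ribosomal RNA genes is given below, and the part of the ribosomal protein share was not tested. The groups came from different deposited tables, and the 48 h libraries carry a batch label, RNAseq_v2, that the 24 h libraries lack. Time and table cannot be told apart for any gene in this comparison. Levels in 4 other uninduced groups are therefore given beside the main genes: C2C12 iMyoD1 at 0 h (in growth medium, from the 24 h table), the same line at 120 h (from the 48 h table), and the iMcam and iCdh23 lines at 48 h (from another table). Of all genes tested, 319 (2.28%) were lower in each of the 9 other libraries from 0 and 24 h than in each of the 32 remaining libraries outside the comparison, and among genes that rose, 245 (9.05%) were. For genes higher in those 9 libraries the numbers were 345 (2.46%) of all and 178 (11.5%) of those that fell.

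A gene was called when the adjusted p of an edgeR quasi-likelihood test was under 0.05 and its fold change was over 2, and "rose" and "fell" are used for called genes. Of 14017 genes tested, 2706 (19.3%) rose from 24 to 48 h and 1550 (11.1%) fell. Each count of list members that rose or fell below is to be read beside these 2 shares. The lists were chosen with earlier results of these data known. The groups did not overlap for 11099 genes, 79.2% of those tested, with or without a call. By fitted fold, large changes went mostly upward: 636 genes rose and 160 fell by more than 16-fold. These counts include genes near 0 at 1 of the times, whose fitted folds are not measured sizes. The rising genes took 6.35% of all counts at 24 h and 26.8% at 48 h, whereas the falling genes went from 13.8% to 4.53%. At 24 h, 324 of the rising genes had at most 3 counts in every library, and 141 of the falling genes did so at 48 h. Such genes are given a lower bound on their fold, computed at 3 counts per library. They passed the filter through the other time only, so that the direction of any call was fixed. The median log2 fold change of all genes tested was -0.02. For every gene given below with an adjusted p for this change, all 3 libraries of 1 time lay above all 3 of the other unless stated otherwise.

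**Figure D1:**
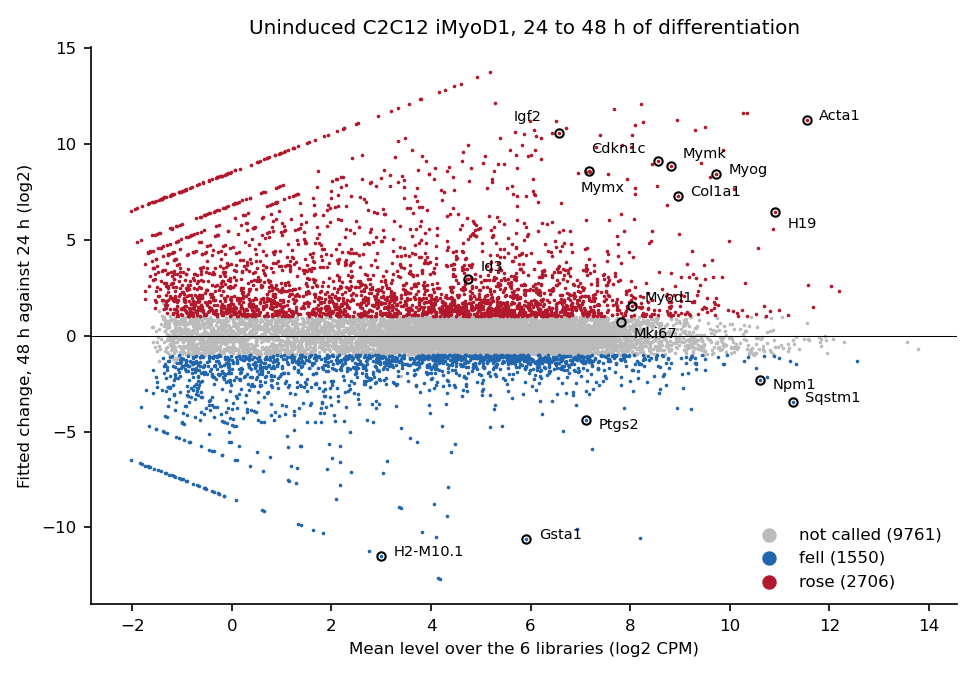
Fitted log2 change from 24 to 48 h (vertical axis) against the log2 of the mean CPM over the 6 libraries (horizontal axis) for the 14017 genes tested, coloured by call, with named genes circled. Diagonal streaks at the edges are genes with 0 counts at one of the times, whose fitted values are not measured sizes.

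Marker genes were set against the labels. All 10 myotube markers tested rose, against 19.3% of all genes tested, and their summed level was 13.4, 14.4 and 15.4 CPM at 24 h and 14294, 13619 and 13058 CPM at 48 h. Of 10 myoblast markers, 8 rose and 1, Cd34, fell, with a summed level of 845, 861 and 873 CPM at 24 h and 5195, 4925 and 4972 CPM at 48 h. Myotube markers were thus near 0 in each 24 h library and present in each 48 h library. Desmin (Des), the muscle intermediate filament protein, was already at 166, 179.5 and 193 CPM at 24 h and reached 1535, 1366 and 1431 CPM, and Cd34, a surface sialomucin of progenitors, went from 309, 309.8 and 302 to 113, 109.6 and 113 CPM. With uninduced iMcam or iCdh23 libraries at 48 h in place of the iMyoD1 libraries, an alternative chosen after seeing the data, Cd34 lost its call (-0.54 and -0.14).

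Myod1 (ENSMUSG00000009471, chromosome 7, 46376474 to 46379099), the myoblast determination factor, was at 142, 139.9 and 136 CPM at 24 h and 391, 389 and 384 CPM at 48 h. The replicates were close (log2 fold change 1.53 ± 0.06 (SE), adjusted p = 2.06e-11). With iMcam and iCdh23 libraries at 48 h the change was 0.72 and 0.87 and was not called. Its mean was 181 CPM at 0 h and 277 CPM at 120 h, so that the 24 h level was the lowest and the 48 h level the highest of the 4 times. Myog (ENSMUSG00000026459, chromosome 1, 134289989 to 134292548), which encodes myogenin, was at 4.77, 5.19 and 5.21 CPM at 24 h and 1692, 1666 and 1689 CPM at 48 h. Every 48 h library was far above every 24 h library (log2 fold change 8.43 ± 0.08 (SE), adjusted p = 5.26e-16). At 0 h its mean was 0.0510 CPM, at 120 h 2292 CPM, and in iMcam and iCdh23 cells at 48 h 843 and 1122 CPM.

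Of the other regulators, Mef2c (chromosome 13, 83504034 to 83667080), a MEF2 gene of differentiating muscle, was at 0.166, 0.0368 and 0 CPM at 24 h and 6.77, 9.59 and 6.24 CPM at 48 h (log2 fold change 6.82 ± 0.43 (SE), adjusted p = 8.05e-09). Counts at 24 h were few, and the later level was still low beside the mean of 275 CPM at 120 h. Mef2a (2.16 ± 0.06 on the log2 scale) and Mef2d (1.35 ± 0.06) started from substantial levels of 90.6 and 85.8 CPM and rose as well. Myf5, the other determination factor, was at 36.3, 34.4 and 40.6 CPM at 24 h and 26.9, 29.9 and 30.9 CPM at 48 h. All 48 h libraries were lower, by a size short of the call (log2 fold change -0.29 ± 0.08 (SE), adjusted p = 0.00454). Myf6, a late differentiation factor, did not pass the filter and was under 0.2 CPM in all 6 libraries. In all, 10 of 16 tested myogenic regulators rose and none fell, with a median log2 fold change of 1.28. Eya1, a transcriptional cofactor of muscle precursors, had the lowest value, -0.67 ± 0.10, and was not called.

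In the list of bHLH antagonists and partners, 12 of 16 tested rose and none fell, with a median log2 fold change of 3.03. Id1 (chromosome 2, 152736251 to 152737410) was at 8.97, 9.46 and 9.87 CPM at 24 h and 47.0, 45.9 and 44.8 CPM at 48 h (log2 fold change 2.33 ± 0.07 (SE), adjusted p = 5.14e-12). Id2 (chromosome 12, 25093799 to 25097140) was at 2.37, 1.22 and 2.46 CPM at 24 h and 73.9, 75.0 and 73.9 CPM at 48 h (log2 fold change 5.26 ± 0.14 (SE), adjusted p = 9.30e-13). Id3 (chromosome 4, 136143497 to 136145755) was at 5.19, 6.0015 and 7.95 CPM at 24 h and 49.5, 45.7 and 47.0 CPM at 48 h (log2 fold change 2.94 ± 0.12 (SE), adjusted p = 5.48e-11). For these 3 inhibitors of MyoD1 dimers the groups did not overlap, yet 24 h was a low point: the means at 0 h were 37.3, 35.9 and 259 CPM. Every 48 h library was below every 0 h library for Id3 and above for Id1 and Id2. Heyl, a Notch-responsive repressor, had the largest rise, from 0.125, 0.221 and 0.217 to 125, 121 and 122 CPM (9.35 ± 0.12). Hes6, a Hairy-related gene of differentiating muscle, went from 22.8, 23.1 and 23.6 to 247, 240.0 and 245 CPM. Twist2, a bHLH repressor of myogenesis, had a log2 fold change of -0.70 ± 0.11 and was not called. Mdfi, which encodes a binding protein of myogenic bHLH factors, rose from a mean of 1.03 to 29.0 CPM. The E-protein partners Tcf3, Tcf4 and Tcf12 were not called (0.15, 0.85 and 0.33).

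Fusion genes followed. Mymk (chromosome 2, 27061636 to 27072179), encoding myomaker, was at 1.54, 2.32 and 2.21 CPM at 24 h and 967, 899 and 823 CPM at 48 h (log2 fold change 8.83 ± 0.12 (SE), adjusted p = 1.56e-15). Mymx (chromosome 17, 45600971 to 45602102), encoding the fusion micropeptide myomixer, was at 0.747, 0.810 and 0.759 CPM at 24 h and 294, 292 and 278 CPM at 48 h (log2 fold change 8.58 ± 0.09 (SE), adjusted p = 5.26e-16). Both were near 0 in all 24 h libraries, and at 120 h the means were 1359.8 and 60.5 CPM, higher than at 48 h for Mymk and lower for Mymx. Tmem182, a muscle membrane protein that limits fusion, was almost undetected at 24 h (1, 2 and 3 counts) and reached 173, 192 and 179 CPM, a rise of at least 1586-fold. Ncam1, the neural cell adhesion molecule, went from a mean of 126 to 490.4 CPM. Elmo1, a regulator of Rac during engulfment and fusion, fell from 56.9, 56.8 and 52.1 to 10.9, 10.3 and 10.9 CPM (log2 fold change -2.32 ± 0.08 (SE), adjusted p = 7.65e-12), but was not called with iMcam libraries at 48 h (-0.26). Over the list, 14 of 19 tested rose and 1 fell, with a median log2 fold change of 1.76.

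Genes of the contractile apparatus came next. The 7 lists of sarcomere, chaperone and triad genes held 98 genes, of which 92 were tested, 85 rose and none fell. Their median log2 fold change was 8.20, or 7.62 with the 21 genes near 0 at 24 h set to their bounds. Those 21 genes passed the filter through their 48 h level, so that they could only be called upward. Acta1 (ENSMUSG00000031972, chromosome 8, 123891769 to 123894751), skeletal actin, was at 2.49, 1.91 and 3.22 CPM at 24 h and 6333, 5902 and 5704 CPM at 48 h (log2 fold change 11.25 ± 0.15 (SE), adjusted p = 1.08e-15). Actc1 (chromosome 2, 114047282 to 114053548), cardiac actin, which developing skeletal muscle also makes, was at 1.12, 0.810 and 0.723 CPM at 24 h and 2744, 2613 and 2494 CPM at 48 h (11.59 ± 0.13). Both actins were near 0 in the 24 h libraries. Their coding sequences are closely alike, so that reads could be split between them with error. Annotated genes overlap both actins on the opposite strand, as they do Ckm, Sqstm1 and Aldh1l2 below, and the library kit was not stated to keep strands apart. Xist was at 2642, 2025 and 2097 CPM at 24 h and 635, 736 and 684 CPM at 48 h, and its antisense gene Tsix at 66.1, 19.7 and 34.8 CPM and 0.178, 0.107 and 0.180 CPM. Without dox, mean Tsix was 42.6 CPM at 0 h, 0 CPM at 120 h, and 8.98 and 24.6 CPM in iMcam and iCdh23 cells at 48 h. In the same order, mean Xist was 1373, 3446, 1454 and 1965 CPM. Low Tsix thus went with the table that holds the 48 and 120 h libraries. Whether strands were handled differently between tables was not tested.

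All 9 myosin heavy-chain genes rose, as did 5 light-chain genes and the light chain kinase genes Mylk2 and Mylk4, which were all that were tested of that list. Myh3 (chromosome 11, 67078300 to 67102291), embryonic myosin, was at 0.955, 0.847 and 0.651 CPM at 24 h and 2618, 2479 and 2297 CPM at 48 h (log2 fold change 11.61 ± 0.13 (SE), adjusted p = 5.26e-16). Myh8, perinatal myosin, had 0 counts in all 24 h libraries and 27.1, 32.3 and 24.3 CPM at 48 h, at least 244-fold more. Myh1, adult fast IIx myosin, was at least 1019-fold higher, at 118, 122 and 110.2 CPM. These genes lie in a cluster of close paralogs on chromosome 11, so that their separate levels are uncertain. Myh13, the extraocular form, was under 1 CPM throughout and had the smallest rise (1.44 ± 0.49), which was not called with DESeq2, in the fit over all whole-culture groups, or without 24 h replicate 3 or 48 h replicate 2 (1.47, 1.40, 1.10 and 1.21). Mylpf, the fast regulatory light chain, had the highest level per kilobase of the light chains and went from 1.95, 2.58 and 2.57 to 1899, 1867 and 1801 CPM. Myl1, the fast essential light chain, reached 410.0, 423 and 397 CPM from under 0.2 CPM. Myl6b, a slow and nonmuscle light chain, was already present at 6.02, 10.2 and 8.24 CPM and reached 173, 164 and 152 CPM.

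Genes of thin-filament regulators, the thick-filament lattice and the Z-disc were mostly called upward. Tnnt3, fast troponin T, went from 0.581, 0.258 and 0.434 to 985, 995 and 965 CPM. Tropomyosin Tpm2 rose (4.96 ± 0.11) from 65.1 to 1951 CPM in the mean, while Tpm3 had the lowest value of its list, -0.62 ± 0.06, and was not called. Mybpc1, slow myosin-binding protein C, had 0 counts at 24 h and was at least 241-fold higher at 48 h. Mybph, its short relative, went from 1.20, 0.700 and 0.506 to 1544, 1498 and 1333 CPM. Actn2, sarcomeric alpha-actinin of the Z-disc, had 0 counts at 24 h and 74.0, 78.9 and 66.0 CPM at 48 h, at least 637-fold more. Myoz2, the Z-disc protein calsarcin, was at least 339-fold higher and Igfn1, an immunoglobulin-fold protein of muscle, at least 159.7-fold. All 3 were at 0 in each 24 h library. Filamin C (Flnc), an actin crosslinker, had the lowest value of the Z-disc list, 0.67 ± 0.09, and was not called, whereas the small heat shock protein gene Cryab rose from 45.8, 56.7 and 59.9 to 411, 362 and 368 CPM. Obsl1, a cytoskeletal linker, went from 42.2, 42.2 and 38.8 to 386, 367 and 374 CPM (3.24 ± 0.06).

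The membrane systems of muscle were called in similar proportions. Of 19 triad and calcium-handling genes tested, 18 rose, with a median log2 fold change of 6.64. Cav3, muscle caveolin, had 0 counts at 24 h and 42.8, 44.9 and 44.6 CPM at 48 h, at least 385-fold more. Bin1, a membrane-bending protein of T-tubules, went from 106, 119 and 125 to 957, 886 and 924 CPM. Casq2, a calcium store protein, went from under 0.4 CPM to 326, 347 and 341 CPM. Atp2a2, a calcium pump of the reticulum, had the smallest change, 0.85 ± 0.07, short of the call. Acetylcholine receptor genes were among the 11 of 13 junction genes that rose: Chrna1 (chromosome 2, 73563215 to 73580338) was at 25.9, 26.5 and 27.0 CPM at 24 h and 1027, 988 and 955 CPM at 48 h and Chrng, the embryonic gamma subunit, at 1.20, 2.06 and 1.95 CPM at 24 h and 519.9, 483 and 471 CPM at 48 h. The alpha subunit thus had a level at 24 h that the gamma subunit lacked. The sodium channel gene Scn4a was at least 107-fold higher, and the chloride channel gene Clcn1 (0.65 ± 0.41) was not called. In the dystrophin complex 8 of 10 tested rose: Dag1, dystroglycan, went from 133, 135 and 124 to 1077, 1046 and 994 CPM, whereas Sgcd (0.15 ± 0.12) overlapped between the groups.

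Muscle energy genes rose in 15 of 18 cases tested, with a median log2 fold change of 5.37 (3.74 with 3 genes at their bound), and 2.90 and 2.89 with iMcam and iCdh23 libraries at 48 h. Ckm (chromosome 7, 19404776 to 19422841), muscle creatine kinase, was at 0.291, 0.221 and 0.325 CPM at 24 h and 577, 553 and 524 CPM at 48 h (log2 fold change 10.97 ± 0.12 (SE), adjusted p = 5.26e-16). Myoglobin (Mb) went from 0.0830, 0.0368 and 0.289 to 554, 616 and 617 CPM, and Eno3, muscle enolase, from 275, 286 and 297 to 944, 897 and 942 CPM. All 3 were separated between the times, but Eno3 was not called with iMcam libraries at 48 h (0.80). Their nonmuscle counterparts did not decline: of 9 nonmuscle isozyme genes tested, 4 rose and none fell. The brain-type kinase gene Ckb went from 7.51, 7.55 and 8.35 to 884, 835 and 822 CPM (6.81 ± 0.08), with 52.3 CPM at 0 h and 44.0 CPM at 120 h, and Eno1 had a log2 fold change of 0.94 ± 0.07. None of the 25 nuclear-encoded respiratory chain genes was called by edgeR, although 23 had an adjusted p under 0.05. Their median was 0.52, and -0.26 and -0.19 with iMcam and iCdh23 libraries at 48 h. Of 13 mitochondrially encoded proteins 1, mt-Atp8, fell (-1.21 ± 0.14). The highest value, of mt-Nd3 (0.93 ± 0.20), was called upward only without 24 h replicate 3 (1.16) or 48 h replicate 2 or 3 (1.06 each).

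No gene of the mitosis and DNA replication lists fell. Mki67 (chromosome 7, 135689784 to 135716361), the proliferation antigen, was at 195, 169 and 156 CPM at 24 h and 280.2, 283 and 269.8 CPM at 48 h. All 48 h values were above all 24 h values, with a change too small for a call (log2 fold change 0.73 ± 0.08 (SE), adjusted p = 1.78e-06), and the mean at 0 h was 885 CPM. Of 25 mitosis genes, 11 rose and none fell, with a median of 0.90. Ccnb2, a mitotic cyclin, was at 23.0, 21.1 and 21.7 CPM at 24 h and 72.0, 71.4 and 67.8 CPM at 48 h (log2 fold change 1.74 ± 0.07 (SE), adjusted p = 3.57e-11), while its 0 h mean was 117 CPM. Cdk1 had a log2 fold change of 0.77 ± 0.07 and Cenpe, a kinetochore motor, 0.09 ± 0.06. For Mki67, Ccnb2 and Cdk1 the 24 h mean was below both the 0 h and the 48 h mean, and the Cenpe groups at 24 and 48 h overlapped. The means at 120 h were 77.7 CPM for Mki67 and 9.44 CPM for Ccnb2. Of 25 DNA replication genes 5 rose, against 19.3% of all genes tested, with E2f2, an activating E2F, the highest (3.44 ± 0.06) and Prim1, a primase subunit, the lowest (-0.85 ± 0.06, not called). With iMcam and iCdh23 libraries at 48 h the list median of 0.43 became -0.0304 and 0.0836, the mitosis median 0.17 and 0.26, and Ccnb2 lost its call (0.65 and 0.53). Pcna, the replication clamp, overlapped between the groups (0.06 ± 0.07), and the sign of its change turned with library totals alone (-0.02) and without 24 h replicate 1 (-0.01). With iMcam and iCdh23 libraries Pcna was lower at 48 h (-0.83 and -0.57), and Prim1 was called downward (-1.45 and -1.12).

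Genes of cell cycle exit went both ways: 7 of 16 tested rose and 2 fell, against 19.3% and 11.1% of all genes tested. Cdkn1c (chromosome 7, 143458339 to 143461050), the kinase inhibitor p57, was at 1.08, 1.77 and 1.41 CPM at 24 h and 803, 741 and 719 CPM at 48 h (log2 fold change 9.09 ± 0.12 (SE), adjusted p = 9.98e-16). It was near 0 at 24 h, and its mean was 6.73 CPM at 0 h and 89.4 CPM at 120 h, so that 48 h was the highest of the 4 times. Cdkn1a (chromosome 17, 29090976 to 29100727), the inhibitor p21, was at 545, 596 and 609.9 CPM at 24 h and 1518, 1391 and 1345 CPM at 48 h (log2 fold change 1.33 ± 0.07 (SE), adjusted p = 9.65e-10), with means of 103 CPM at 0 h and 2337 CPM at 120 h. Unlike p57 it already had a substantial level at 24 h, and it lost its call with iMcam and iCdh23 libraries at 48 h (0.41 and 0.67). Among D-type cyclins, Ccnd1 was at 51.2, 46.3 and 49.1 CPM at 24 h and 58.7, 56.5 and 64.4 CPM at 48 h and was not called (0.35 ± 0.07). Ccnd2 fell from 192, 194 and 175 to 23.5, 22.3 and 23.3 CPM (log2 fold change -2.97 ± 0.07 (SE), adjusted p = 2.61e-13), whereas Ccnd3 rose (2.92).

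Insulin-like growth factor genes and imprinted genes were listed separately and share Igf2. Igf2 (ENSMUSG00000048583, chromosome 7, 142650766 to 142666816), a growth factor that myoblasts secrete while differentiating, was at 0, 0.258 and 0.108 CPM at 24 h and 191, 196 and 185 CPM at 48 h (log2 fold change 10.55 ± 0.18 (SE), adjusted p = 1.15e-14). H19 (chromosome 7, 142575529 to 142578143), the imprinted noncoding RNA next to it, was at 41.3, 43.2 and 49.7 CPM at 24 h and 3616, 3856 and 3942 CPM at 48 h (log2 fold change 6.46 ± 0.09 (SE), adjusted p = 2.43e-15). Both were separated by time without overlap, but H19 had counts in every 24 h library and Igf2 almost none. At 120 h the means were 752 CPM for Igf2 and 4879 CPM for H19. Annotated genes overlap both on the opposite strand, and counts on the 2 strands may not be fully separate. Igfbp5, a secreted binding protein of these factors, went from 1175, 1289 and 1078 to 3019, 2947 and 2734 CPM, and Igf2bp3, an RNA-binding protein, fell by at least 5.74-fold from under 1.1 CPM. In all, 8 of 14 tested genes of the system rose and 2 fell, against 19.3% and 11.1% of all genes tested. The imprinted list had 8 rises and 1 fall among 11 genes tested. The fall was in Peg10, a retrotransposon-derived gene, from 128, 134 and 125 to 54.4, 55.7 and 51.3 CPM. With iMcam libraries at 48 h neither Peg10 (-0.81) nor Igfbp5 (0.58) was called. The median over the imprinted genes was 4.82, or 2.70 with 2 genes at their bound.

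**Figure D2:**
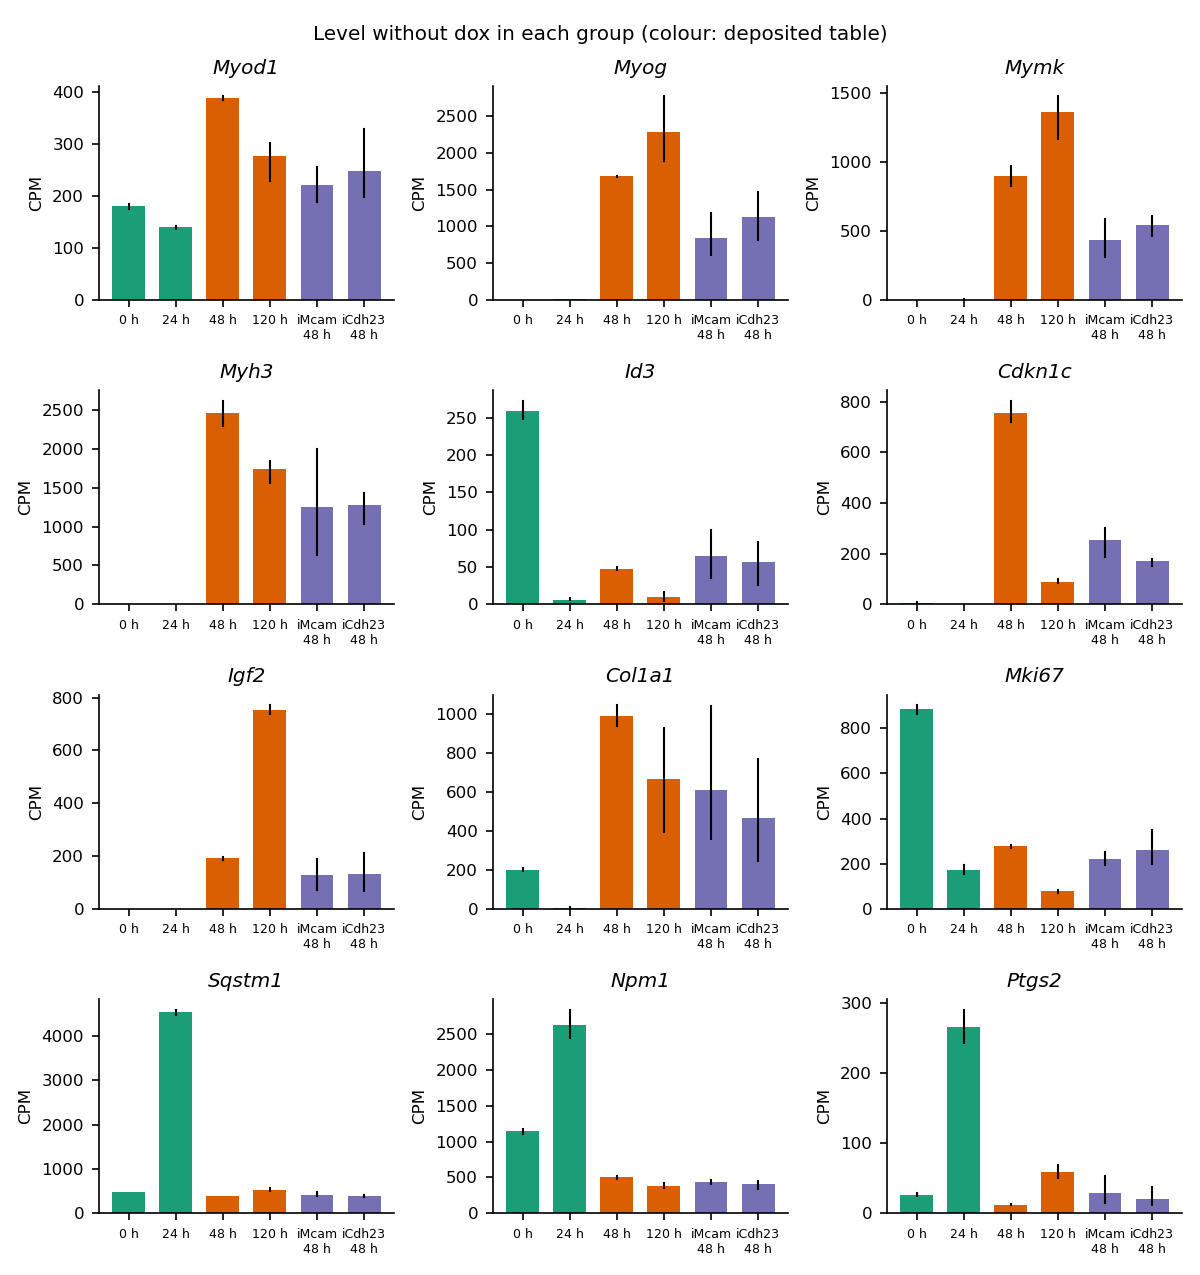
Mean level in CPM (bars from 0, black lines from the lowest to the highest of 3 libraries) of 12 genes in 6 groups without dox, coloured by deposited table. Myog, Mymk and Myh3 were near 0 at 0 and 24 h, Id3 and Mki67 were highest at 0 h, and Sqstm1, Npm1 and Ptgs2 were highest at 24 h.

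Signalling lists held more rises than falls, as did all genes tested (19.3% rose and 11.1% fell). Of 18 TGF-beta and BMP genes tested, 13 rose and 1 fell, with a median of 2.26. Bmp6, a ligand, had 0 counts at 24 h and was at least 63.2-fold higher, and Fstl1, a secreted follistatin relative, went from 143, 146 and 134 to 819.7, 816 and 819 CPM. Inhba, the activin A subunit, fell from 12.7, 12.4 and 15.2 to 3.92, 6.27 and 5.30 CPM (-1.32 ± 0.16), but was not called with iMcam or iCdh23 libraries at 48 h (0.0362 and -0.94). Of 22 immediate-early and ERK-responsive genes, 12 rose and 3 fell. Egr2, a zinc finger factor, rose from under 0.4 CPM to 19.8, 19.1 and 18.0 CPM. Junb, an AP-1 subunit, stood just over the threshold (1.04 ± 0.06) and dropped below it with library totals alone (0.96) and in the fit over all whole-culture groups (0.998). It was also below the threshold with iMcam and iCdh23 libraries at 48 h (0.82 and 0.75). Atf3, a stress-inducible factor, fell from 85.9, 84.3 and 78.7 to 2.79, 4.29 and 2.29 CPM (log2 fold change -4.69 ± 0.14 (SE), adjusted p = 2.32e-12), where its 0 h mean was 0.584 CPM. Its 24 h libraries were thus above both 0 h and 48 h.

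Of 18 genes for chemokines, myokines and related mediators, 6 rose and 3 fell, against 19.3% and 11.1% of all genes tested. Ptgs2 (chromosome 1, 150100031 to 150108227), the inducible cyclooxygenase of prostaglandin synthesis, was at 291, 243 and 266 CPM at 24 h and 11.4, 12.8 and 11.7 CPM at 48 h (log2 fold change -4.42 ± 0.09 (SE), adjusted p = 5.76e-14). Alox5, the 5-lipoxygenase of leukotriene synthesis, moved the other way, from 0.166, 0.0736 and 0.145 to 56.7, 59.5 and 49.989 CPM (8.76 ± 0.17). Neither gene's groups overlapped. Vegfa, the vascular growth factor, overlapped between times and was not called (-0.16 ± 0.09).

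Extracellular matrix genes rose widely: 14 of 15 collagens and 18 of 19 other matrix genes tested, with median log2 fold changes of 3.07 and 3.19. Col1a1 (chromosome 11, 94936224 to 94953042), a chain of type I collagen, was at 5.52, 8.06 and 5.78 CPM at 24 h and 935, 1043 and 989.5 CPM at 48 h (log2 fold change 7.31 ± 0.12 (SE), adjusted p = 9.79e-15). Col3a1, type III collagen, was at 1599, 1527 and 1615 CPM at 24 h and 7911, 7947 and 7377 CPM at 48 h (2.34 ± 0.07). Type III collagen was abundant at both times, whereas type I was low at 24 h only, since its mean was 201 CPM at 0 h. Fmod, a collagen-binding proteoglycan, went from under 0.2 CPM to 64.4, 69.9 and 62.3 CPM, and Sparc, a collagen-binding matricellular protein, from 1662, 1867 and 1717 to 4826, 4741 and 4712 CPM. Fibronectin (Fn1) was at 4624, 4891 and 3593 CPM at 24 h and 2886, 3052 and 2816 CPM at 48 h and was not called (-0.53 ± 0.10). With iMcam or iCdh23 libraries at 48 h its change had the opposite sign (1.02 and 0.58). Summed collagen levels were 3782, 3778 and 3775 CPM at 24 h and 19636, 20055 and 18928 CPM at 48 h.

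Of the basement membrane, metalloproteinase and adhesion genes tested, 4 of 40 fell, against 11.1% of all genes tested. Lama2, the laminin chain of muscle basement membrane, went from 1.45, 1.51 and 1.37 to 55.0, 61.0 and 52.6 CPM, and Nid1, a laminin linker, fell from 474, 415 and 402 to 145, 167 and 146 CPM (-1.44 ± 0.08), among 8 of 15 tested that rose and 1 that fell. Nid1 lost its call with iMcam and iCdh23 libraries at 48 h (-0.13 and -0.90). Mmp2, a gelatinase, rose from 249.98, 257 and 241 to 1132, 1026 and 1014 CPM, 1 of 6 metalloproteinase and inhibitor genes that rose out of 9 tested. None fell, but Mmp19 (-0.97 ± 0.09) was called downward with library totals only (-1.05), without the filter (-1.001), without 24 h replicate 1 (-1.01), without 48 h replicate 1 (-1.0006) or 3 (-1.02), and in the fit over all whole-culture groups (-1.02). Of 16 cadherin and immunoglobulin adhesion genes tested, 8 rose and 3 fell. Cdh11, a mesenchymal cadherin, had 0 counts at 24 h and was at least 75.7-fold higher, while Ncam2, with 0 counts at 48 h, fell by at least 10.5-fold. Vcam1, an adhesion molecule of myoblasts, rose from 41.3, 40.8 and 44.1 to 151, 151 and 155 CPM. Targets of serum response factor shared with smooth muscle were called upward in 12 of 17 cases: Acta2 (chromosome 19, 34241090 to 34255590), smooth muscle actin, was at 74.1, 80.3 and 82.1 CPM at 24 h and 3913, 3528 and 3519.7 CPM at 48 h (log2 fold change 5.59 ± 0.08 (SE), adjusted p = 3.03e-15), with 874 CPM at 0 h. Caldesmon (Cald1) was lower in all 48 h libraries but not called (-0.65 ± 0.06).

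The falling side of the comparison held genes of ribosome production and amino acid stress. Of 22 ribosome biogenesis genes, none rose and 12 fell, against 11.1% of all genes tested, with a median log2 fold change of -1.01. Npm1 (chromosome 11, 33152287 to 33163206), nucleophosmin, was at 2444, 2587 and 2839 CPM at 24 h and 523, 481 and 506 CPM at 48 h (log2 fold change -2.33 ± 0.07 (SE), adjusted p = 3.84e-12), with a mean of 1144 CPM at 0 h, so that 24 h was the highest of the 4 times. Bop1, a processing factor of the large subunit, had the smallest change (-0.07 ± 0.06) and was not called. Of 90 protein-coding genes tested with symbols starting in Rpl or Rps and a digit, 8 fell and 3 rose. The shares of all genes tested were 11.1% and 19.3%, and the median of the 90 was -0.47. Most encode ribosomal proteins, but the pattern also matches kinase genes with Rps symbols, so these counts are not of ribosomal proteins alone.

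Genes under the stress factor ATF4 fell in 12 of 18 cases and rose in 1, with a median of -1.36, and -2.68 and -1.83 with iMcam and iCdh23 libraries at 48 h. Aldh1l2 (chromosome 10, 83487450 to 83534140), a mitochondrial folate enzyme, was at 956, 929 and 852 CPM at 24 h and 61.4, 79.9 and 53.8 CPM at 48 h (log2 fold change -3.76 ± 0.12 (SE), adjusted p = 7.55e-12). Its 24 h libraries were far above the 48 h libraries, and the means were 102 CPM at 0 h and 619 CPM at 120 h. Atf4 itself was at 1121, 1106 and 1189.8 CPM and then 634, 694 and 619 CPM, which was short of the call (-0.76 ± 0.07). Fgf21, a secreted stress hormone, was the exception that rose, from 88.6, 104 and 106 to 209, 219.8 and 184 CPM (1.09 ± 0.08). With iMcam libraries at 48 h it was lower than at 24 h (-1.72).

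Sqstm1 (ENSMUSG00000015837, chromosome 11, 50199366 to 50210827), encoding the autophagy receptor p62, had the largest fall in CPM among called genes after a mitochondrial ribosomal RNA. It was at 4591, 4464 and 4560.0 CPM at 24 h and 395, 383 and 402 CPM at 48 h (log2 fold change -3.48 ± 0.07 (SE), adjusted p = 3.18e-14). The mean was 487 CPM at 0 h, 536 CPM at 120 h, and 421 and 394 CPM in iMcam and iCdh23 cells at 48 h, so that the 24 h group alone was high among these 6. The ferritin genes fell as well: Fth1, the heavy chain, went from 3536, 3840.0 and 4158 to 1403, 1294 and 1333 CPM (-1.47 ± 0.07) and Ftl1, the light chain, from 2618, 2897 and 3009 to 627, 586 and 625 CPM (-2.16 ± 0.07). Their 0 h means were 1395 and 1319 CPM. Ferritin genes have many processed pseudogenes, so that these counts are uncertain. Rgs2, a brake on G-protein signalling, fell from 193, 194 and 199 to 5.93, 6.54 and 5.88 CPM, against a 0 h mean of 8.97 CPM.

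The 8 largest falls were sought among genes averaging 5 CPM or more, without an annotated gene opposite them. Gsta1, a glutathione transferase that conjugates reactive compounds, was at 110.0, 116 and 136 CPM at 24 h and had at most 3 counts per library at 48 h, at least 764-fold less. Other alpha-class transferases are close to it in sequence, and its level is uncertain to that degree. Car6, a secreted carbonic anhydrase, was at 229, 260.3 and 241 CPM at 24 h and 0.119, 0.161 and 0.314 CPM at 48 h (log2 fold change -10.11 ± 0.15 (SE), adjusted p = 2.39e-15). H2-M10.1, a nonclassical class I gene, fell by at least 101-fold, and the kinase gene Dyrk4 by at least 252-fold. Slitrk6, a neuronal transmembrane protein, fell by at least 133-fold, Sspo, a matrix glycoprotein of the brain, by at least 212-fold, and Taf7l, a germ-cell transcription factor subunit, by at least 66.3-fold. Cyp4b1, a monooxygenase, fell from 16.2, 15.5 and 17.2 to 0.237, 0 and 0.0898 CPM. These 8 genes all had means of over 10 CPM at 24 h. At 0 h Slitrk6 had a mean of 43.4 CPM and Gsta1 of 3.84 CPM, and the other 6 were under 0.4 CPM.

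Of 18 interferon and antigen presentation genes tested, 2 rose and 3 fell, against 19.3% and 11.1% of all genes tested, and 12 had an adjusted p under 0.05 in the edgeR test. The median was -0.47, and 0.0281 and 0.25 with iMcam and iCdh23 libraries at 48 h. Of the 2 rises, that of Ifit3, an interferon-induced protein (1.30 ± 0.44), was not called with DESeq2 (1.32), in the fit over all whole-culture groups (1.26), or without 24 h replicate 1 (1.07) or 48 h replicate 3 (1.07). Isg15, a ubiquitin-like interferon product, fell from 5.81, 8.06 and 9.72 to 2.85, 1.93 and 1.66 CPM, and B2m, the class I light chain, was not called (-0.44 ± 0.06). Sterol and fatty acid synthesis genes rose in 8 of 21 cases and fell in none, with a median of 0.90. Scd2, a fatty acid desaturase, had a log2 fold change of 0.95 ± 0.06 and was not called.

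**Figure D3:**
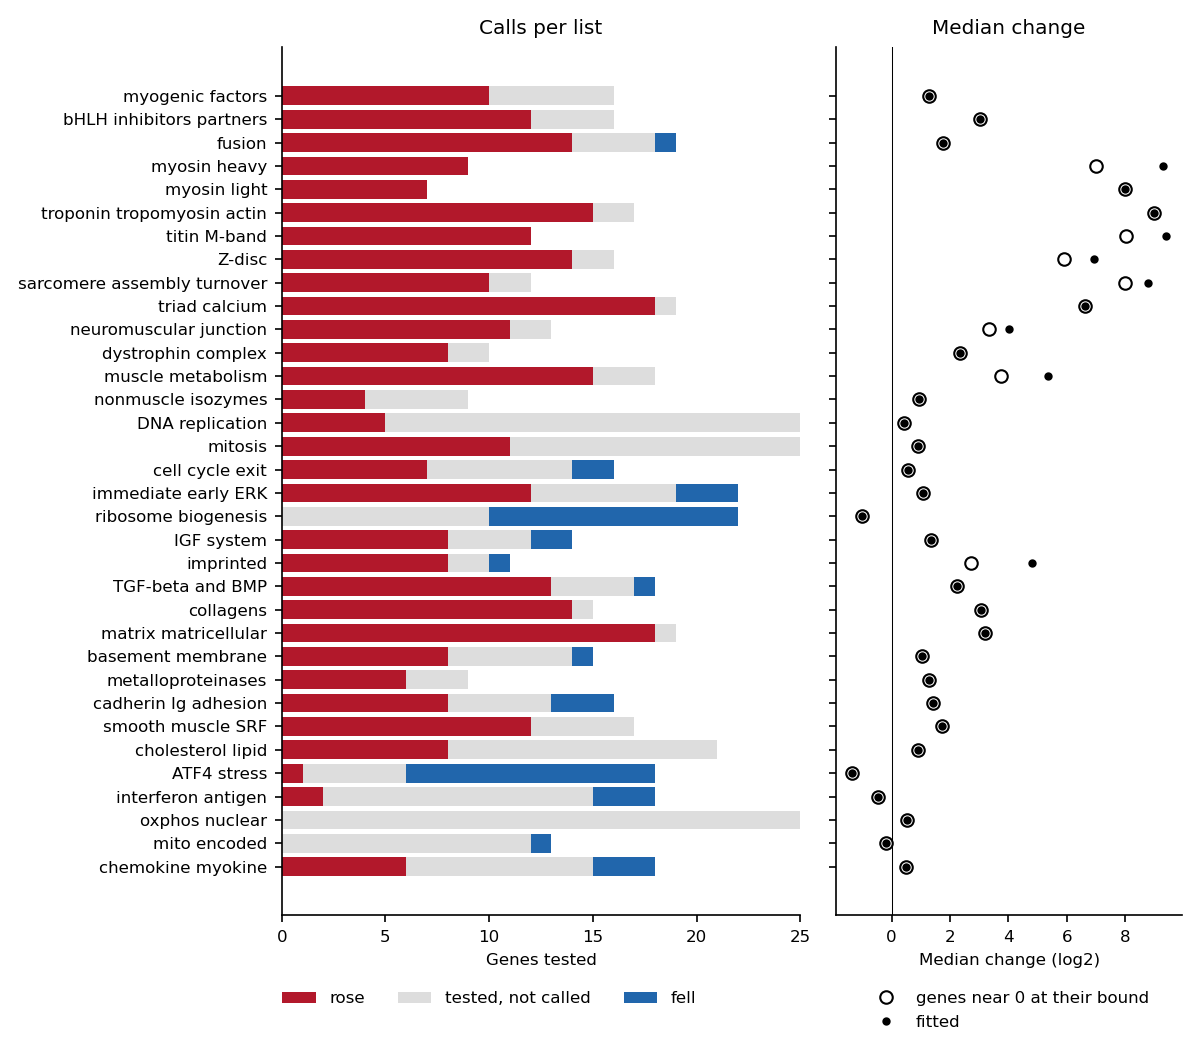
For 34 gene lists, the number of tested genes that rose, were not called or fell (bars, left) and the median log2 change (dots, right; open circles set genes with at most 3 counts per library at their bound). Lists of sarcomere genes lie furthest to the right, and ribosome biogenesis, ATF4, interferon and mitochondrially encoded lists lie left of 0.

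Among the rising genes with the largest difference in CPM were 2 annotated over a ribosomal RNA repeat, CT010467.1 (1026, 1210.4 and 1489.9 CPM at 24 h and 6836, 13284 and 1385 CPM at 48 h) and Gm42418 (789, 764 and 1043 CPM at 24 h and 4431, 9945 and 1240.2 CPM at 48 h), which overlap each other on opposite strands. Replicate 2 was the highest and replicate 3 the lowest at 48 h, and CT010467.1 overlapped between the groups. Neither CT010467.1 nor Gm42418 was called with iMcam (0.10 and 0.60) or iCdh23 libraries (-0.54 and 0.078) at 48 h. Without mitochondrial and ribosomal RNA genes, an alternative chosen after seeing the data, 2719 genes rose and 1530 fell. The mitochondrial ribosomal RNA mt-Rnr2 fell from 8044, 7766 and 10115 to 3463, 3661 and 3010.1 CPM.

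Markers of other cell types were mostly at or near 0. Of 8 endothelial markers 1, Egfl7, was tested and was not called, though it was without 24 h replicate 2 (1.01) or 48 h replicate 2 (1.07), and the summed level was 1.49, 1.80 and 1.59 CPM at 24 h and 3.50, 2.89 and 3.41 CPM at 48 h. Of 8 immune markers 2 were tested and neither was called, with 1.66, 1.10 and 3.47 CPM at 24 h and 2.85, 3.16 and 3.59 CPM at 48 h, and Csf1r was called upward without 24 h replicate 3 (2.54). Pecam1, Cdh5, Ptprc and Adgre1, which define those cells, did not pass the filter. Of 8 adipocyte markers 2 were tested: Cebpa, a factor also present outside fat, rose (1.36 ± 0.08) and Pparg did not (-0.36 ± 0.13), with Adipoq and Plin1 not tested and 22.4, 19.8 and 22.6 CPM at 24 h and 35.8, 37.9 and 38.9 CPM at 48 h.

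Of 9 bone and cartilage markers 4 were tested, 2 rose and 1 fell, with 59.5, 65.1 and 57.3 CPM at 24 h and 117, 122 and 115 CPM at 48 h. Sox9, a chondrogenic factor, was the most abundant per kilobase and rose from 11.9, 14.3 and 13.7 to 62.4, 65.7 and 62.6 CPM, and Sp7, Ibsp and Acan were not tested. Of 8 neural and glial markers 3 were tested, with 21.4, 26.0 and 24.7 CPM at 24 h and 12.7, 12.6 and 14.3 CPM at 48 h: Tubb3, neuronal tubulin, fell (-1.01 ± 0.11) but lost its call with DESeq2 (-0.997) with RLE factors (-0.98), without mitochondrial and ribosomal RNA genes (-0.999), and without 24 h replicate 2 (-0.94) or 3 (-0.997) or 48 h replicate 1 (-0.97) or 2 (-0.99), and had the opposite sign with iMcam libraries (0.87), Gfap, a glial filament protein, had 3 counts or fewer in each earlier library and rose by at least 6.93-fold, to 1.26 CPM at most, and Snap25, Rbfox3 and Sox10 were not tested. Fibroblast markers differed from these lists: 7 of 8 tested rose and the eighth, Scara5, was not called (-0.47 ± 0.06), while Thy1 and Fap were not tested. Their summed level was 110.2, 115 and 118 CPM at 24 h and 271, 275 and 284 CPM at 48 h, and Dpt, a dermatopontin gene, was the most abundant per kilobase and went from 0.332, 0.626 and 0.362 to 87.8, 102 and 105 CPM. The part of fibroblast-like cells in the matrix results was not tested.

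The same interval was compared with and without dox in an interaction test over the 4 groups at 24 and 48 h, each of 3 libraries. A difference between tables that acts alike on both arms is in both changes. The difference is signed, the log2 change with dox minus that without, so that a positive value can be a greater rise or a lesser fall. Of 15080 genes tested, it was called positive for 640 (4.24%) and negative for 1351 (8.96%). Of the 92 contractile and triad genes, 57 had a negative difference and 2 a positive one. Of 25 mitosis genes all had a negative difference (median -1.77), and 12 of 22 ribosome biogenesis genes a positive one (median 1.02), beside a median change without dox of -1.01. Mki67 had means of 173 and 278 CPM without dox and 199 and 74.7 CPM with dox at 24 and 48 h. The change was 0.73 without dox and -1.43 with it on the log2 scale, a difference of -2.13 ± 0.13 (adjusted p = 7.18e-09). Myod1 did not differ (-0.13 ± 0.08, adjusted p = 0.202), whereas the change of Myog was 8.43 without dox and 7.28 with it (-1.12 ± 0.14, adjusted p = 1.10e-05).

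Transcript usage was compared over the same 6 libraries. Of 6821 genes tested, 739 (10.8%) had an adjusted p under 0.05 and a transcript whose mean share of the gene moved by at least 20 percentage points. Of the called genes, 41 are members of the lists, and 25 of those had at least 20 CPM at both times, while the other 16 rest on few counts at 24 h. Salmon's division of reads between transcripts has an error of its own, which the counts do not show. Tpm1, an alpha-tropomyosin gene with smooth and striated forms, had the smallest adjusted p of those named: Tpm1-205 (ENSMUST00000113685) took 2.41%, 1.70% and 2.60% at 24 h and 65.9%, 66.0% and 65.3% at 48 h of the gene (adjusted p = 6.48e-28). Over the same interval Tpm1-211 went from 58.4% to 6.06%. In Tpm2, Tpm2-202 went from 37.2% to 79.9% and Tpm2-203 from 59.0% to 18.1%.

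Several muscle genes had such an exchange. For the calcium pump gene Atp2a2, whose total was not called, Atp2a2-201 took 91.7%, 88.2% and 89.9% at 24 h and 31.1%, 29.7% and 30.8% at 48 h, and the shorter Atp2a2-202 went from 3.57% to 62.2%. Atp5c1, the gamma subunit of ATP synthase, passed from the 1166-base Atp5c1-203 (71.1% to 15.9%) to the 1060-base Atp5c1-201 (28.9% to 84.1%). Flnc-202, which is 8939 bases long against 9038 for Flnc-201, went from 3.64% to 41.9%. Replicates within each time were close for these genes and the times did not overlap. Mef2d-201 went from 42.4% to 68.7% and Mef2a-208 from 69.5% to 95.8%. In Ncam1, Ncam1-201 went from 8.27% to 37.7%, in Obsl1, Obsl1-202 went from 19.7% to 62.9%, and in caldesmon, Cald1-203 gave way (82.3% to 47.7%) to Cald1-204 (5.11% to 43.6%). Among genes with at least 20 CPM at both times, the 6 largest changes were in Fhl1, a LIM protein of muscle, whose Fhl1-204 had no counts at 24 h and took 77.3% at 48 h, Pde4dip, a scaffold protein (Pde4dip-201, 90.7% to 16.7%), Rnf213 (Rnf213-201, 83.6% to 0%), Scrib (Scrib-202, 83.4% to 0%), Rai1 (Rai1-201, 80.0% to 9.46%) and Pip4p1 (Pip4p1-205, 78.9% to 11.6%).

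Promoters of the contractile genes were described by their motifs, in the 250 bases before the first start listed per gene in RefSeq (GRCm38.p6). Of the 85 contractile and triad genes that rose, 62 had a promoter in the table. CAGCTG, a form of the E-box CANNTG that MyoD1 and myogenin bind, was present in 25 of these (40.3%), against 12.8% of all 27025 promoters. The looser CANNTG was in 83.9% against 66.0%. A MEF2 site was in 17.7% against 3.01%, and a CArG box in 9.68% against 1.40%. Among genes tested with a promoter, the shares were 11.8% for CAGCTG, 56.5% for CANNTG, 1.60% for MEF2 and 1.19% for CArG. Both strands were searched. Over all rising genes with a promoter, 17.3% held CAGCTG, and over falling genes 11.0%. Of the 8 matched mitosis genes that rose, 6 held CCAAT and 1 held TTTGAA, a cell cycle element, against 34.5% and 16.3% of all promoters. Among genes tested with a promoter, CCAAT was in 36.85% and TTTGAA in 10.3%. A match is a description of letters, not a shown site.

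The promoters of 6 muscle genes that rose together are printed 5′ to 3′ on the strand of the gene, with CANNTG, MEF2 sites and CArG boxes in capitals, so that the placing of these letters can be read: Myog (chr1:134289754-134290003, plus strand), Acta1 (chr8:123894776-123895025, minus strand), Actc1 (chr2:114052876-114053125, minus strand), Mylpf (chr7:127211358-127211607, plus strand), Chrna1 (chr2:73580339-73580588, minus strand) and Chrng (chr1:87205561-87205810, plus strand).
Myog: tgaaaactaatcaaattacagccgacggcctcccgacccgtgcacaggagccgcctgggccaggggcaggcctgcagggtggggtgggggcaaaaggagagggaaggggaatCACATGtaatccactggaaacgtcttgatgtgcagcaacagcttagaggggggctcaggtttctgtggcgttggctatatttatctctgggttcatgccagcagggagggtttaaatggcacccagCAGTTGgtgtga
Acta1: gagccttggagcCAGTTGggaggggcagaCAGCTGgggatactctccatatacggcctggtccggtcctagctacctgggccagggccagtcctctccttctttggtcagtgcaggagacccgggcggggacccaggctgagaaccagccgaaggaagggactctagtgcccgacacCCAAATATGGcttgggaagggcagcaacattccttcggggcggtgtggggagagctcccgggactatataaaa
Actc1: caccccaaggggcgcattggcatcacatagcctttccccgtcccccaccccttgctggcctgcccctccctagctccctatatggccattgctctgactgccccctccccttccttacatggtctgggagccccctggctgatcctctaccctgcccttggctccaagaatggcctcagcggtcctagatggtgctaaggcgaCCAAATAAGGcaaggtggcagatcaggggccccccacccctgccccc
Mylpf: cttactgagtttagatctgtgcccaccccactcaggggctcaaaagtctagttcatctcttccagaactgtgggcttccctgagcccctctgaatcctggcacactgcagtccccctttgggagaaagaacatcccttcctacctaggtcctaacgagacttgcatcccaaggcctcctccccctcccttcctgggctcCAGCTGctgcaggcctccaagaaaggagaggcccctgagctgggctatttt
Chrna1: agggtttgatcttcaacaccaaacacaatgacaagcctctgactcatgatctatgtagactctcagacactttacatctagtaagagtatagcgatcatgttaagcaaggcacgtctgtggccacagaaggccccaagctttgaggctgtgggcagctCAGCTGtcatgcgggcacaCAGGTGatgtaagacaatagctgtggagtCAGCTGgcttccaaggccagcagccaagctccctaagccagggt
Chrng: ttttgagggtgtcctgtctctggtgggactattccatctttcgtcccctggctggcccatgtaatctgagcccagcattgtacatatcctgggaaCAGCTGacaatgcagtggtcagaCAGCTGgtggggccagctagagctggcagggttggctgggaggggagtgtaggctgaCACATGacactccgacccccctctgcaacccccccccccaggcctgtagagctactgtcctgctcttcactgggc

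Beside them, the promoters of 2 mitosis genes are printed in the same way with only CCAAT and TTTGAA in capitals. They are Ccnb2 (chr9:70421555-70421804, minus strand), which rose, and Cdk1 (chr10:69352913-69353162, minus strand), which was not called.
Ccnb2: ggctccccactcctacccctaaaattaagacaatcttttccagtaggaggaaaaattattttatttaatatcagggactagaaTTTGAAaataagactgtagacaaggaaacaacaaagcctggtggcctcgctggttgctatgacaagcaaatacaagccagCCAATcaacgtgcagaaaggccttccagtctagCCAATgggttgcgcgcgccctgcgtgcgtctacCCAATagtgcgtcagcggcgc
Cdk1: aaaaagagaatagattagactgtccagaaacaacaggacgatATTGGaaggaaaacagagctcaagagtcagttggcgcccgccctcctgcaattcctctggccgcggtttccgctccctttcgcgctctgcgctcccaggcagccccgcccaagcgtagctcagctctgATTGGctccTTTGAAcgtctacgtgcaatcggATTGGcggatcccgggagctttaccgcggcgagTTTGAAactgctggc

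Chrna1 and Chrng each held 3 E-boxes, of which 2 were of the CAGCTG form, and Acta1 and Actc1 each held 1 CArG box. Ccnb2 and Cdk1 each held 3 CCAAT letters, which in the Cdk1 promoter lie on the other strand and so appear as their reverse complement, ATTGG. The letters searched for as a MEF2 site were not in the window of the 6 muscle genes. The pattern had to end in A or G, and near matches were not counted. The Myog window held ctatatttat, which differs from the pattern in its last letter only. Ccnb2 held 1 full match to the MEF2 pattern and Cdk1 held 1 CANNTG, both left unmarked. Actc1 held no CANNTG and 1 CCAAT, which is likewise unmarked. Mymk and Mymx were not in the promoter table.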

How the data were processed

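The authors sequenced poly(A) RNA from whole cultures (150-base paired-end reads), ran Salmon within nf-core/rnaseq on mm10, with no version given for Salmon, and deposited estimated counts per transcript. The members and gene lists were chosen with earlier results of these data known. The 3 tables held 109617 transcripts of 45706 genes in 47 libraries, and 33.25% of values were not whole numbers. The annotation version was not stated, and 98.72% of transcripts matched GENCODE vM21, from which coordinates and transcript names were taken.

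Transcript values were summed per gene and rounded. Genes passing filterByExpr were tested with the edgeR 4.0.16 quasi-likelihood F test (R 4.3.3, limma 3.58.1) with TMM factors and Benjamini-Hochberg adjustment over all genes tested, 3 libraries against 3 without covariates. The biological coefficient of variation was 0.0747, and library totals of 18598298 to 30444909 counts set the floor of 3 counts per library. The change with and without dox was compared by an interaction term in 12 libraries and called at a difference over 1 on the log2 scale. Transcript usage was tested with diffSpliceDGE. All 3 tests were tested on simulated data, where each recovered 200 of 200 planted changes. The planted changes were large, in genes or transcripts with ample counts and at a fixed dispersion. Recovery near a threshold or at few counts was not tested, and no difference between tables was simulated. Levels use TMM factors over all 47 libraries, so that their ratios differ from the fitted log2 fold change by 0.05.

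Always named were 19 genes of myogenesis and the cell cycle. The others were the 8 genes with the largest fold change per direction (mean of at least 5 CPM, no overlap of groups, no opposite-strand gene), the 5 with the largest CPM difference, the extremes and the most abundant gene of each list, the 4 largest differences with dox per direction, and called usage genes. Alternatives were DESeq2 1.42.0, RLE factors, library totals only, no filter, a replicate block, each library left out, a fit over all whole-culture groups, adjusted p alone, no genes overlapped on the opposite strand, limma diffSplice and 10 percentage points. Chosen after seeing the data were iMcam or iCdh23 libraries at 48 h and leaving out mitochondrial and ribosomal RNA genes. Motifs were counted with Python 3.11.15.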

Additional observations from a re-analysis of the deposited data

Results flagged for a closer look

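The change from 24 to 48 h differed between cultures with and without dox by the interaction test: the difference, taken as the log2 change with dox minus that without, was called positive for 640 genes and negative for 1351. A positive difference can be a greater rise or a lesser fall with dox. Among the genes always named, the difference of the log2 changes was -1.12 for Myog, -1.58 for Mymx, -1.39 for Myh3, -1.52 for Ckm, -1.26 for Acta1, -2.33 for Id2, -2.10 for Cdkn1c and -2.13 for Mki67. It was positive for Myf5 (2.47) and Ccnd1 (1.30). The largest differences were -5.44 for Sema3g, -5.36 for Mybpc1, -5.30 for Cav3, -5.12 for Nrarp, 4.91 for Gm29216, 4.64 for Rgs2, 4.43 for Gsta1 and 4.22 for Gm4070. For Cav3, Mybpc1, Gm4070 and Gsta1 at least 1 group had at most 3 counts in every library, so that the fitted difference depends on the prior count and is no measured size. The difference of Mybpc1 was not called without 24 h with dox replicate 1 (-4.06, adjusted p = 0.0649 by edgeR).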

How the results depend on the processing

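The number of genes that rose (2706) or fell (1550) became 5383 and 5387 with adjusted p alone, and 1511 and 871 when genes with an annotated gene opposite them were dropped. Without the low-count filter 3360 rose and 2126 fell, with DESeq2 3065 and 1690, in the fit over all whole-culture groups 2954 and 1855, with RLE factors 2759 and 1495, and with library totals only 2543 and 1806. Leaving out each library gave 2739 to 2857 and 1581 to 1680. Genes with a positive difference of the change with dox (640) numbered 449 with library totals only, 540 with DESeq2, 555 with RLE factors and 570 to 675 with each library left out, and those with a negative one (1351) 1538, 1439, 1428 and 1283 to 1432. Usage calls (739) numbered 1433 at 10 percentage points, 869 with limma diffSplice, 735 without the filter and 651 to 723 with each library left out. Scaling by library totals moved the median of all genes by -0.08. Pcna had the opposite sign with library totals only (-0.0194) and without 24 h replicate 1 (-0.0097).

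With uninduced iMcam libraries at 48 h, chosen after seeing the data, the sign was opposite for Eya1 (0.13), Pcna (-0.83), Cenpe (-0.37), Inhba (0.0362), Fn1 (1.02), Cald1 (0.053), Acaca (0.0609), Fgf21 (-1.72), B2m (0.0432), Atp5b (-0.37), mt-Nd3 (-0.25), Scara5 (0.62), Egfl7 (-0.49), Cd68 (-0.66) and Tubb3 (0.87). With iCdh23 libraries it was opposite for Myf5 (0.22), CT010467.1 (-0.54), Eya1 (0.32), Pcna (-0.57), Cenpe (-0.12), Col11a1 (-0.0396), Fn1 (0.58), Acaca (0.0585), Fgf21 (-0.52), B2m (0.46), Atp5b (-0.28), mt-Co1 (0.0498), Scara5 (0.91), Egfl7 (-0.47), Cd68 (-0.53) and Tubb3 (0.52). Calls were also lost for 12 named genes with iMcam libraries: Myod1 (0.72), Cdkn1a (0.41), CT010467.1 (0.10), Gm42418 (0.60), Elmo1 (-0.26), Eno3 (0.80), Ccnb2 (0.65), Junb (0.82), Igfbp5 (0.58), Peg10 (-0.81), Nid1 (-0.13) and Cd34 (-0.54). With iCdh23 libraries calls were lost for 8: Myod1 (0.87), Cdkn1a (0.67), Gm42418 (0.078), Ccnb2 (0.53), Junb (0.75), Inhba (-0.94), Nid1 (-0.90) and Cd34 (-0.14). Calls were gained for Ccnd1 (1.47 and 1.45), Prim1 (-1.45 and -1.12) and Atf4 (-1.95 and -1.44) with both, Vim (1.24) with iMcam and Sgcd (1.02) with iCdh23. Of the genes with an opposite sign, Fn1 was called upward and Fgf21 downward with iMcam libraries. Of 42 list medians, 38 and 39 moved by more than the spread between replicates.

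With replicate number as a block, 2691 genes rose and 1542 fell, and 598 genes were called in usage. The replicate numbers do not pair the libraries: the correlations of like-numbered libraries were -0.132, 0.012 and 0.044, and the samples share only a number.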

Other observations

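Some named genes have no place in the paragraphs above. Postn, the matrix protein periostin, was at 2.08, 2.17 and 1.92 CPM at 24 h and 65.2, 77.8 and 77.9 CPM at 48 h, and Pdgfra, a growth factor receptor of mesenchymal cells, at 2.86, 2.80 and 2.93 CPM at 24 h and 11.8, 12.7 and 10.5 CPM at 48 h. Both rose without overlap of the groups (5.21 ± 0.11 and 2.07 ± 0.13 on the log2 scale). Itga6, a laminin receptor subunit, rose from 10.3, 9.61 and 10.9 to 80.5, 74.2 and 68.6 CPM. Col2a1, type II collagen, fell from 1.33, 1.66 and 1.66 to 0.178, 0.429 and 0.494 CPM (-1.97 ± 0.36).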
